A study of Mus musculus with 9 samples.

Results

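The tumours described here grew from 66cl4 cells, and the question was which genes set them apart from tumours of both related lines, 67NR and 4T1. The arrays titled 66cl4 were taken as the tumours described, 3 of the 9 arrays of the series, and the 3 arrays titled 67NR and the 3 titled 4T1 were the comparison. A gene was called set apart when 66cl4 differed from 67NR and from 4T1 in the same direction, with both adjusted p-values under 0.05, and its size is given as the smaller of the 2 differences. The comparisons with 67NR and with 4T1 share the 66cl4 arrays, so they are not independent of each other.

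Each line was grown in 3 female BALB/c mice aged 7 to 9 weeks, with no mutation of the host named in the labels. The cells are written 66cl4/CMVLUC, 67NR/CMVLUC and 4T1/CMVLUC in the labels, so all groups carry the same CMVLUC suffix, and 1000000 viable cells were placed in a mammary gland on the right side. Tumours were taken after 15 days, and RNA came from the tumour area of laser-captured sections, which were hybridised to 1 single-colour Affymetrix array per mouse. A line is a single cell population, so the 3 mice of a group sample the hosts and the growth of the tumours, not different tumours of origin, and the labels name no treatment.

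The lines come from the same spontaneous mammary tumour of a BALB/c mouse. 67NR is known to stay at the site of injection, whereas 66cl4 and 4T1 spread to the lung, and the series is titled for the epithelial-mesenchymal transition, in which epithelial cells give up their junctions and take on mesenchymal features. Many of the genes described here belong to the known response to interferon gamma, a cytokine of T and NK cells. It switches on the MHC genes that present antigen, the chemokines that attract further T cells, and a family of GTPases that act against pathogens inside cells.

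Among the genes lower in 66cl4 were interferon-induced GTPases and chemokines whose promoters are known targets of interferon. Stretches of 120 bases from 8 of their promoters are shown here because the interferon motifs found by letters lie in them. Capitals mark GAAANNGAA, the core of the interferon-stimulated response element, and TTCNNNGAA, the interferon gamma activated site, on either strand, and overlapping matches run together. The windows are those of RefSeq on GRCm38.p6, are written in the direction of transcription, and give the last 120 bases before the start of the transcript for the GTPases and the 120 bases from 250 to 131 before it for the chemokines.
Gbp3 (chr3:142559924-142560043, + strand): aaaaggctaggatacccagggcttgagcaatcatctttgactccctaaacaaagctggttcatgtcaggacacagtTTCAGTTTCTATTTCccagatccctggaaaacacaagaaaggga
Gbp7 (chr3:142530216-142530335, + strand): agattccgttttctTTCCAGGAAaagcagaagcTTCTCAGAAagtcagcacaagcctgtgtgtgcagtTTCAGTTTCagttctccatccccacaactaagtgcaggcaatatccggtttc
Igtp (chr11:58199436-58199555, + strand): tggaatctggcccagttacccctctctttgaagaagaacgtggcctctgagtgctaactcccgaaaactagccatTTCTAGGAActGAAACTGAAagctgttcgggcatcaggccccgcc
Irgm2 (chr11:58214857-58214976, + strand): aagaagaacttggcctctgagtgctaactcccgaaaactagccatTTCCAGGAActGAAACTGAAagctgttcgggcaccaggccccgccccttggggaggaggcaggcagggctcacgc
Gbp2 (chr3:142620543-142620662, + strand): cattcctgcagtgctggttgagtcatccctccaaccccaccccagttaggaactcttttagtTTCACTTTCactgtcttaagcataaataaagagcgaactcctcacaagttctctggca
Irgm1 (chr11:48871421-48871540, - strand): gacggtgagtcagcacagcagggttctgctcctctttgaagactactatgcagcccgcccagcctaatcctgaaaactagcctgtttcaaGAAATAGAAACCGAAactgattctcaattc
Cxcl9 (chr5:92328210-92328329, - strand): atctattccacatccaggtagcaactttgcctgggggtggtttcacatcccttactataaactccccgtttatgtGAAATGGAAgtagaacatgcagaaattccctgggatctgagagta
Cxcl10 (chr5:92349020-92349139, - strand): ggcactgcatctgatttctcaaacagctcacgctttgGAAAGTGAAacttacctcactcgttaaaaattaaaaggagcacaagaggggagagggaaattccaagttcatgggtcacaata
The 6 GTPases shown are all measured members of that family with a window in the table, and each of the 6 held the response element core in at least 1 window, Gbp3 in 1 of its 2. Among members set apart lower with a window, the core stood in 2 of 4 T-cell-attracting chemokines and receptors, 2 of 8 antiviral genes, 1 of 8 MHC class I genes and 0 of 3 MHC class II genes. Of all 32851 windows of 300 bases in the table, 8.6% held the core and 8.3% the gamma activated site. Over measured genes the core stood in 10.8% of the 630 genes set apart lower with a window, 8.7% of the 1039 set apart higher and 8.7% of all 14452. The gamma activated site stood in 8.6%, 8.1% and 8.6% of the same 3 sets. A match is a run of letters and was not tested as a binding site.

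The values are log2 signals, on which a difference of 1 is a doubling, for 18193 genes, each read through its brightest probe set. The 9 arrays had medians of 5.51 to 5.58. Across all probe sets, which are not independent replicates, the 66cl4 arrays correlated with each other at r = 0.991 to 0.993, with 67NR at 0.961 to 0.967 and with 4T1 at 0.948 to 0.954. The spiked hybridization controls averaged 10.86 ± 0.23 in 66cl4, 11.16 ± 0.30 in 67NR and 10.46 ± 0.22 in 4T1 (SD, n = 3 each), so 66cl4 lay between the other lines in this technical measure. Bacterial control probe sets with no target in the RNA reached 4.83 to 5.08, and a gene that stayed at or under that level in all 3 tumours of a line counted as not above background for the line. For such a gene the fold is a lower bound, written as "at least".

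In 66cl4 tumours, 1251 genes were set apart higher and 816 set apart lower, which is 6.88% and 4.49% of all genes. A difference of at least 2-fold from both lines was found for 292 of the higher and 295 of the lower genes, and the median smaller difference was 0.63 for the higher and -0.81 for the lower genes. All 3 66cl4 values lay above the 6 others for 2235 genes (12.3%) and below them for 1571 genes (8.64%). Of the genes set apart, 1242 of the 1251 higher and 808 of the 816 lower ones showed no overlap. The contrast of 66cl4 with the mean of both other lines called 4935 genes (27.1%), but a gene can pass that contrast by differing from 1 line alone. By the same rule, 67NR was set apart by 2016 genes and 4T1 by 2611, so 66cl4 stood apart by about as many genes as 67NR. Another 174 probe sets without a gene name were set apart higher and 81 lower. Of 761 higher genes with more than 1 probe set, 186 had all of them set apart higher. For the lower genes it was 124 of 457. A probe set called the other way was found for 2 of the higher and none of the lower genes. Many genes named below had probe sets that were not called. Among them, 2 of 4 were called for Tap1 and Cx3cl1, and 3 of 4 for Efnb2. For Cxcl11, Xaf1, Ntn1, Irf8, Lama4, Lamc1, Eln and Adamts12 it was 1 of 2. For Esr1 and Grb10 it was 1 of 3, and for Jag1, Nid1, Cxcl12, Id2 and H2-Ea 2 of 3. For Plet1, Ank3, Smad3 and Axin2 the counts stand with the gene.

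**Figure D1:**
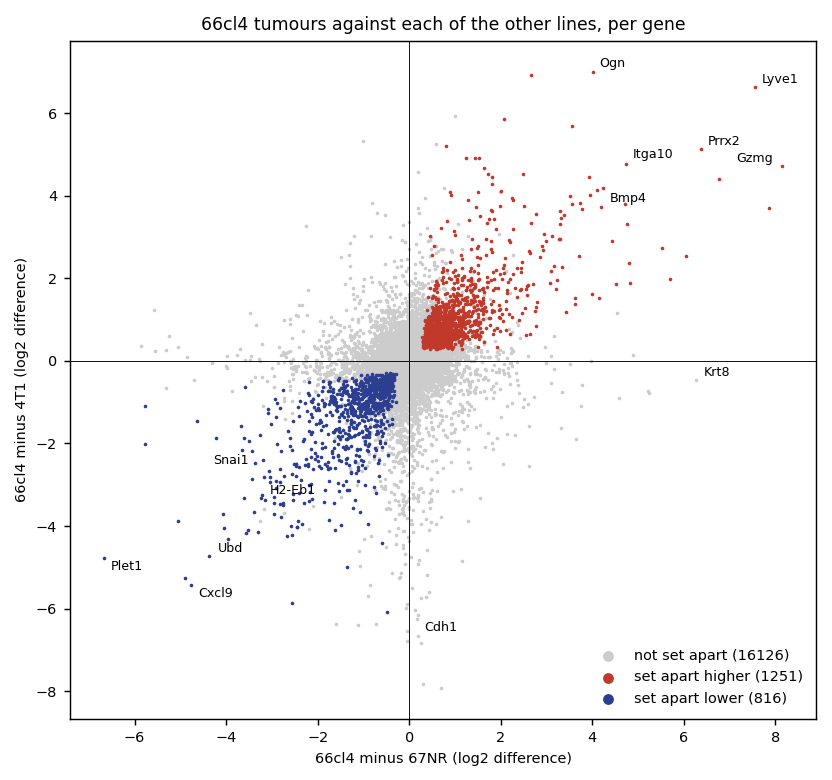
Each point is a gene, placed by its log2 difference of 66cl4 from 67NR (x axis) and from 4T1 (y axis), with the 1251 genes set apart higher in red at upper right and the 816 set apart lower in blue at lower left. Lyve1 and Prrx2 lie far out in the first corner and Plet1 and Cxcl9 in the second, while Cdh1 and Krt8 lie along an axis because 66cl4 differed strongly from only 1 of the lines.

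The gene furthest above both lines was Lyve1, a hyaluronan receptor of lymphatic endothelium and of macrophages that reside in tissue. It read 12.31, 12.74 and 12.23 in 66cl4 tumours, against 3.47, 4.63 and 6.54 in 67NR tumours and 5.26, 6.24 and 5.86 in 4T1 tumours. Every 66cl4 tumour thus lay more than 5 log2 units above every other tumour. The difference was 7.55 ± 0.61 from 67NR (adjusted p = 3.04e-05) and 6.64 ± 0.61 from 4T1 (adjusted p = 4.3e-05; SE of the fit), a fold of 99.5 at the smaller of the 2. Prrx2, a homeobox factor of embryonic mesenchyme, followed with 11.02, 10.71 and 10.88 in 66cl4, against 4.69, 4.24 and 4.58 in 67NR and 5.11, 6.32 and 5.78 in 4T1. It was not above background in 67NR, and in 66cl4 it was 35.1-fold above 4T1 (5.14 ± 0.26, adjusted p = 6.82e-07).

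By the smaller difference, Itga10, Gzmg, Gzmf, Bmp4, Ppp1r3c and Ogn followed, and the granzymes are given with their family. Bmp4, a secreted ligand of the bone morphogenetic protein family, read 8.86, 9.07 and 9.02 in 66cl4, against 4.48, 5.0 and 4.80 in 67NR and 4.54, 4.88 and 4.98 in 4T1, with no overlap. It was at least 16.1-fold higher than in either line (4.22 ± 0.16 from 67NR, adjusted p = 4.59e-07). Itga10, the alpha subunit of a collagen-binding integrin, read 10.43, 9.63 and 9.51 in 66cl4, against 5.32, 4.66 and 5.39 in 67NR and 5.09, 4.86 and 5.31 in 4T1, and was 26.6-fold higher (4.73 ± 0.26 from 67NR, adjusted p = 3.38e-06). The 67NR and 4T1 readings of both genes lay close to background. Ogn, a small leucine-rich proteoglycan of connective tissue, read 11.93, 10.97 and 12.47 in 66cl4, against 8.01, 7.38 and 7.95 in 67NR and 4.90, 4.66 and 4.79 in 4T1, so here the lines formed 3 separate levels. The smaller difference, from 67NR, was 4.01 ± 0.32 (adjusted p = 2.74e-05).

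Enzymes and genes known from other tissues made up most of the other genes furthest above. Ptgds, which makes prostaglandin D2, was 15.2-fold higher than in 67NR, at 11.01 ± 0.56 in 66cl4 against 7.08 ± 0.05 in 67NR and 6.55 ± 0.19 in 4T1 (SD, n = 3 each). Ppp1r3c, which brings a phosphatase to glycogen, was at least 9.52-fold higher, and Acot1, an acyl-CoA thioesterase, at least 8.54-fold. Neither was above background in 67NR or 4T1. The same was true of Sohlh1, a germ cell transcription factor (at least 10.9-fold), Dppa2, a gene of pluripotent cells (at least 8.25-fold), Zfhx4, a zinc finger homeobox factor (at least 9.23-fold), and Pcdhb7, a clustered protocadherin (at least 5.23-fold). Vmn1r148, a member of the vomeronasal receptor family, was at least 11.3-fold higher. In all, 76 of the genes set apart higher were not above background in both other lines, and 61 of those set apart lower were not above background in 66cl4.

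**Figure D2:**
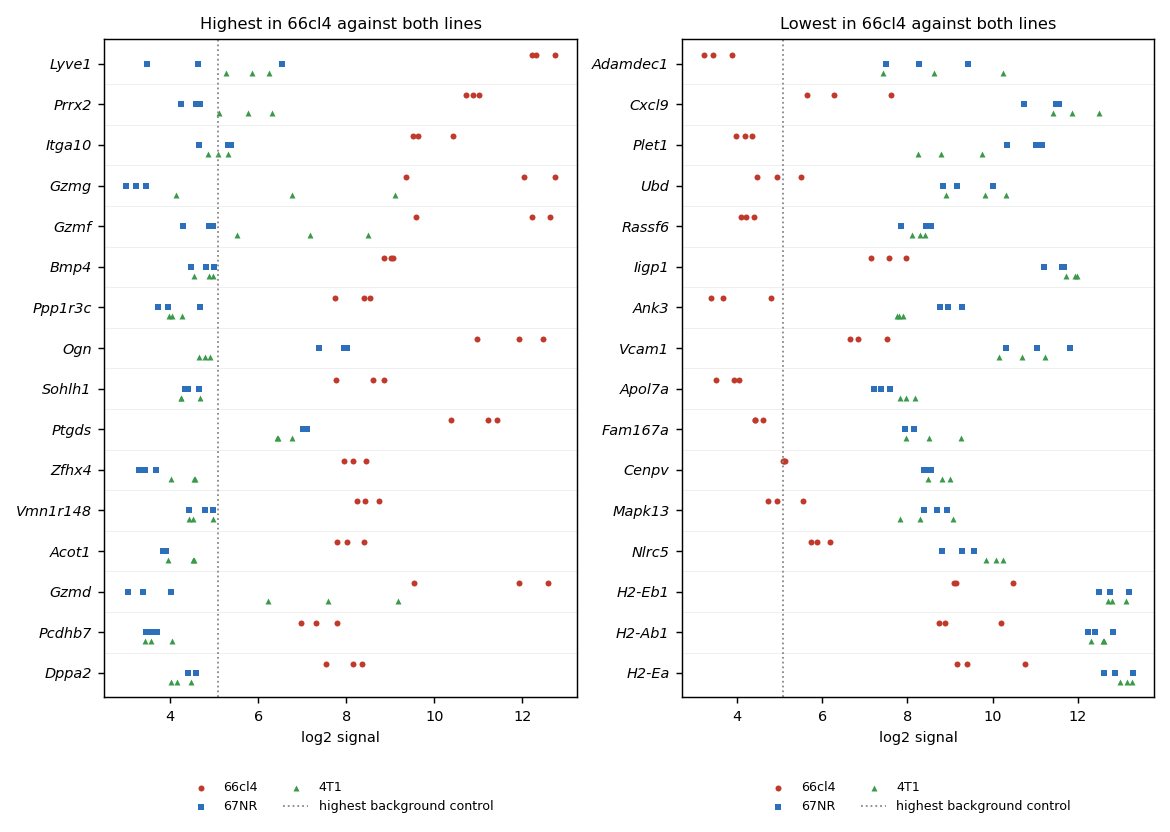
Log2 signal (x axis) of the 16 genes furthest above both lines in 66cl4 (left panel) and the 16 furthest below (right panel), with 1 symbol per tumour, 66cl4 in red circles, 67NR in blue squares and 4T1 in green triangles. The dotted line marks the highest bacterial control of any array, 5.08. Gzmg, Gzmf and Gzmd spread widely within 66cl4 and 4T1, and Adamdec1 spreads widely within 4T1.

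On the lower side, Cxcl9 led among the genes measured above background in all lines. This chemokine is induced by interferon gamma and attracts activated T cells. It read 6.27, 5.64 and 7.61 in 66cl4 tumours, against 11.50, 11.56 and 10.75 in 67NR and 11.42, 12.51 and 11.87 in 4T1, with a gap of over 3 log2 units between the groups. The difference was -4.76 ± 0.46 from 67NR (adjusted p = 8.71e-05) and -5.43 ± 0.46 from 4T1 (adjusted p = 2.36e-05), or 27.2-fold at the smaller. Ubd, a ubiquitin-like modifier induced by the same cytokine, was 20.8-fold lower, at 4.96 ± 0.52 in 66cl4 against 9.34 ± 0.61 in 67NR and 9.68 ± 0.72 in 4T1. Vcam1, the endothelial and macrophage adhesion molecule that holds leukocytes, was 13-fold lower than in 4T1. Adamdec1, a metalloprotease-like gene of macrophages and dendritic cells, read 3.88, 3.21 and 3.43 in 66cl4, against 9.43, 8.26 and 7.50 in 67NR and 10.26, 7.42 and 8.61 in 4T1. It was not above background in 66cl4 and at least 11.2-fold lower there (-4.89 ± 0.65 from 67NR, adjusted p = 0.000604).

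The other genes furthest below both lines have varied roles. Plet1, a surface protein of epithelial progenitors, read 4.35, 3.97 and 4.19 in 66cl4, against 10.33, 11.17 and 11.03 in 67NR and 9.76, 8.24 and 8.79 in 4T1, and was at least 16.3-fold lower. Of its 3 probe sets, 2 were set apart lower. Ank3, which anchors membrane proteins to the cytoskeleton, was at least 7.53-fold lower with 5 of its 6 probe sets set apart. Rassf6, of the Ras-association family, was at least 10.3-fold lower and Mapk13, a p38 kinase, 10.0-fold lower. Cenpv, a centromere protein, was 10.5-fold lower, and Apol7a, of the apolipoprotein L family, at least 5.60-fold. Fam167a was at least 8.58-fold lower.

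The interferon-induced GTPases were lower in 66cl4 as a family. Of the 14 listed, 9 could be measured, and all 9 were set apart lower, beside 4.49% of all genes. Their median difference from the mean of both other lines was -3.15, beside -0.014 over all genes. Iigp1, a GTPase that attacks the vacuoles of intracellular parasites, read 7.56, 7.14 and 7.97 in 66cl4, against 11.68, 11.64 and 11.20 in 67NR and 11.73, 11.93 and 11.99 in 4T1 (-3.95 ± 0.20 from 67NR, adjusted p = 2.04e-06). Gbp3, a guanylate-binding protein, read 7.14, 7.11 and 7.62 in 66cl4, against 10.41, 10.33 and 9.96 in 67NR and 10.92, 11.03 and 11.07 in 4T1. No 66cl4 value of either gene came within 2 log2 units of another tumour. The relatives Gbp8, Gbp6 and Gbp7 had smaller differences of -2.92, -2.80 and -2.53, and Irgm1 (-1.38) differed least among the 9. Probe sets of such close relatives can bind each other's transcripts, which these files do not allow to be separated.

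The chemokines that attract T cells, and 2 of their receptors, were all set apart lower as well, 7 of 7 measured, with a median of -2.65. Cxcl10, a ligand of the same receptor as Cxcl9, read 5.27, 6.05 and 6.21 in 66cl4, against 7.82, 8.69 and 8.38 in 67NR and 9.61, 10.12 and 9.84 in 4T1. Cxcl11, the remaining ligand of that receptor, was 5.88-fold lower than in 67NR and, with a difference of -5.85 ± 0.26, much further below 4T1. By mean, 66cl4 was lowest and 4T1 highest for Cxcl9, Cxcl10 and Cxcl11, although 67NR and 4T1 overlapped for Cxcl9. Ccl5, which T cells, macrophages and tumour cells release, was 5.86-fold lower than in 67NR (-2.55 ± 0.40, adjusted p = 0.00153). Cxcr6, the receptor of Cxcl16 on T cells, read 4.16, 4.86 and 5.44 in 66cl4, against 7.84, 6.31 and 6.76 in 67NR and 6.52, 7.82 and 6.53 in 4T1.

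**Figure D3:**
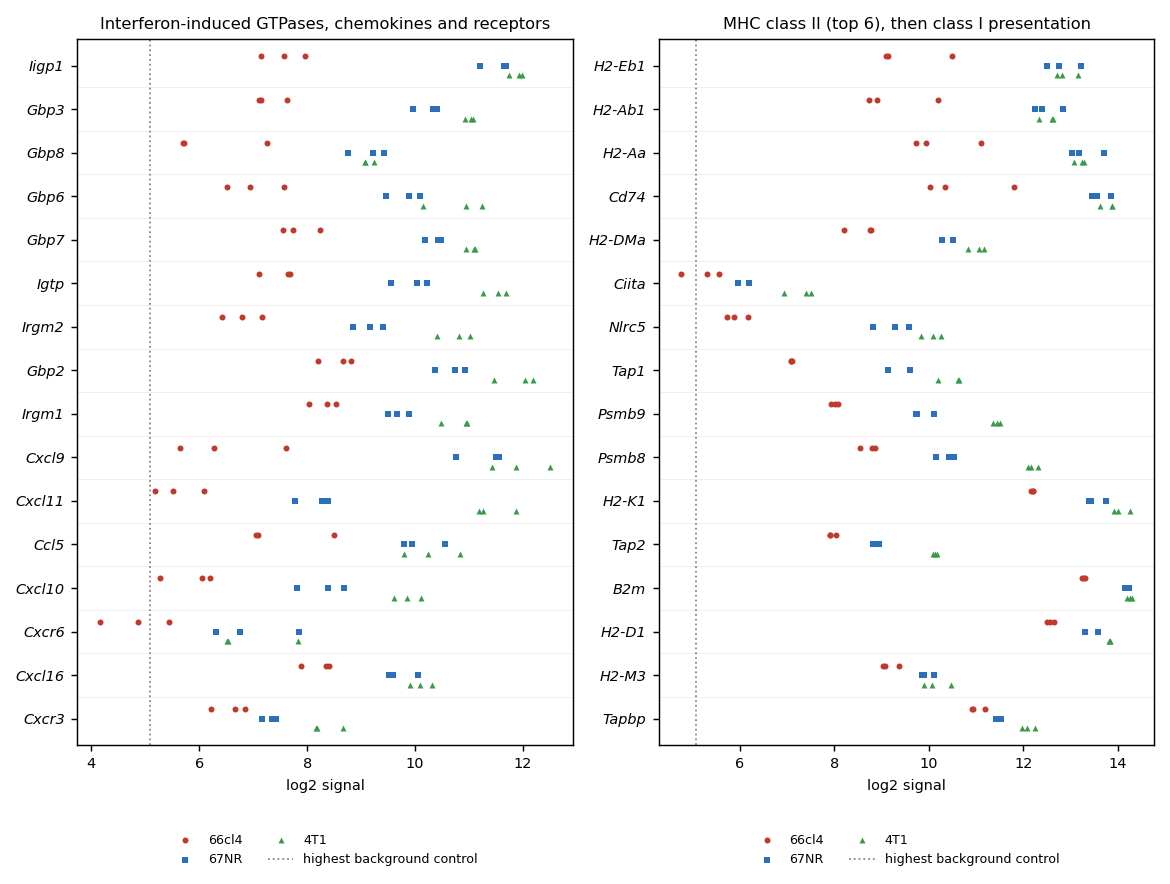
Log2 signal (x axis) of the interferon-induced GTPases and T-cell-attracting chemokines and receptors set apart lower in 66cl4 (left), and of the genes of MHC class II and class I presentation set apart lower (right), with 1 symbol per tumour. The genes were picked by that call, so their 3 66cl4 tumours lie at the low end by selection. The 66cl4 tumour nearest the other lines for H2-Eb1, H2-Ab1, H2-Aa and Cd74 is replicate 3.

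Genes of antigen presentation by MHC class II, which shows peptides to helper T cells, were set apart lower in 6 of 9 cases. That is 66.7%, beside 4.49% of all genes, and the median over the 9 was -2.11. H2-Eb1, a class II beta chain, read 9.13, 9.10 and 10.49 in 66cl4, against 13.21, 12.76 and 12.49 in 67NR and 12.81, 13.14 and 12.72 in 4T1, and was 9.49-fold lower. H2-Ab1 was 9.33-fold and H2-Ea 8.87-fold lower. Cd74, the invariant chain that accompanies class II molecules, read 10.02, 10.33 and 11.79 in 66cl4, against 13.86, 13.56 and 13.45 in 67NR and 13.88, 13.87 and 13.62 in 4T1. Replicate 3 had the highest reading of the 66cl4 tumours for each of these genes and still lay below all others.

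For MHC class I presentation, which shows peptides to cytotoxic T cells, 10 of 17 measured genes were set apart lower and none higher. The lower share was 58.8%, beside 4.49% of all genes, and the median was -1.0. Nlrc5, the activator of class I genes, read 5.73, 5.87 and 6.17 in 66cl4, against 9.57, 9.29 and 8.81 in 67NR and 10.25, 9.84 and 10.09 in 4T1 (-3.30 ± 0.20 from 67NR, adjusted p = 5.07e-06). Tap1, a subunit of the transporter that loads peptides, read 7.08, 7.08 and 7.10 in 66cl4, against 9.59, 9.13 and 9.13 in 67NR and 10.20, 10.63 and 10.62 in 4T1. The immunoproteasome subunits Psmb9 and Psmb8 were 3.61-fold and 3.11-fold lower than in 67NR and further below 4T1. The class I heavy chain H2-K1 changed less, 2.53-fold, but its 66cl4 readings of 12.15, 12.20 and 12.21 were close together and below all 6 others, 13.39 being the lowest of these. Between the 66cl4 tumours the class II gene H2-Eb1 had an SD of 0.79 and the class I gene H2-K1 an SD of 0.03.

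Among interferon-stimulated antiviral genes, 13 of 30 were set apart lower (43.3%, beside 4.49% of all genes) and none higher, with a median of -1.01. Zbp1, a sensor of nucleic acids, read 6.66, 6.58 and 6.76 in 66cl4, against 9.05, 9.11 and 9.04 in 67NR and 9.57, 10.03 and 10.00 in 4T1 (-2.40 ± 0.13 from 67NR, adjusted p = 2.9e-06). Irf7, a transcription factor of the type I response, was 2.90-fold lower, Ifit3, which acts on viral RNA, 2.88-fold, Xaf1, a pro-apoptotic factor, 2.90-fold and Oasl2, of the oligoadenylate synthetase family, 2.60-fold. All 5 showed no overlap between 66cl4 and the others, as did 808 of all 816 genes set apart lower.

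Of 15 receptors and transducers of interferon signals, 4 were set apart lower (26.7%, beside 4.49% of all genes) and none higher, with a median of -0.077. Ifng, interferon gamma itself, read 3.59, 3.78 and 3.56 in 66cl4, which is not above background, against 6.08, 5.34 and 5.42 in 67NR and 5.35, 6.67 and 6.57 in 4T1, so it was at least 1.63-fold lower. With values floored at background, Ifng kept its direction but missed the threshold (-0.71). Irf8, a factor of myeloid cells, Stat2, which carries type I signals, and Socs1, a feedback inhibitor, had smaller differences of -0.70, -0.67 and -0.80, and the call of Socs1 was lost in turn without any of the 66cl4 arrays, 67NR replicate 2 or 3, or 4T1 replicate 2 or 3. The receptor chains Ifngr1 and Ifngr2 and the kinases Jak1 and Jak2, picked out after their values were seen, were not set apart. Jak1 was nonetheless below 67NR (adjusted p = 0.0428). Jak2 averaged 8.35 in 66cl4, 8.92 in 67NR and 11.42 in 4T1, and was called against 4T1 only (adjusted p = 2.19e-05). Against 67NR, 5 of the 15 were lower and none higher, and against 4T1, 5 were lower and 2 higher. Ifngr1 averaged 9.04 ± 0.24 in 66cl4, against 9.46 ± 0.08 in 67NR and 8.53 ± 0.14 in 4T1.

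Some markers of T and NK cells were also lower in 66cl4, more of them against 67NR than against 4T1. Of the 21 measured, 14 were lower and 1 higher than in 67NR, and 6 lower and 2 higher than in 4T1. Set apart from both lines were 6 lower (28.6%, beside 4.49% of all genes) and 1 higher (4.8%, beside 6.88%), with a median of -0.71. Cd3g, a chain of the T-cell receptor complex, read 5.23, 4.62 and 5.77 in 66cl4, against 8.40, 7.26 and 7.66 in 67NR and 6.87, 7.93 and 7.33 in 4T1, and was 4.50-fold lower. Cd8b1, of cytotoxic T cells, and Cd3d had smaller differences of -1.85 and -1.22, and Nkg7, of cytotoxic granules, -1.0. Without 66cl4 replicate 2 the count fell to 2 of 21, the calls of Cd8b1 and Cd3d being among those lost, and that of Cd3d was lost also without 67NR replicate 1. The linear signals of the 21 markers summed to 1499 to 1925 in 66cl4, against 2661 to 3902 in 67NR and 1781 to 2564 in 4T1, so the sums of 66cl4 and 4T1 overlapped. The part of T and NK cell markers in the lower interferon genes was not tested. In these bulk samples fewer cells of a type and less RNA per cell cannot be told apart.

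Markers of dendritic cells, which carry much MHC class II, were set apart lower in 3 of 11 cases and higher in none. The lower share was 27.3%, beside 4.49% of all genes, and the median over the 11 was -0.22. Against 67NR, 6 were lower and none higher, and against 4T1, 3 were lower and 2 higher. Itgax, the CD11c integrin chain, read 6.24, 6.60 and 5.96 in 66cl4, against 9.20, 8.41 and 7.83 in 67NR and 8.76, 9.23 and 8.47 in 4T1, and was 4.64-fold lower. Batf3, a factor of cross-presenting dendritic cells, and Irf8 were the others set apart lower. The 11 markers summed to 4346 to 5505 in 66cl4, against 7051 to 8247 in 67NR and 5769 to 6947 in 4T1, with no overlap. None of 10 B and plasma cell markers was set apart, with sums of 385 to 787 in 66cl4, 1261 to 5479 in 67NR and 610 to 27337 in 4T1. The part of dendritic and B cell markers in the class II difference was not tested.

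Against this, a cluster of granzymes was higher in 66cl4. Granzymes are serine proteases that cytotoxic lymphocytes release with perforin, and 5 of 12 genes of this list were set apart higher (6.88% of all genes) and none lower, with a median of 0.92. Gzmg read 12.74, 12.04 and 9.37 in 66cl4, against 3.23, 3.45 and 3.00 in 67NR and 6.76, 4.13 and 9.10 in 4T1. Gzmf read 12.63, 12.21 and 9.59 in 66cl4, against 4.28, 4.89 and 4.98 in 67NR and 7.18, 5.53 and 8.49 in 4T1. In both genes 66cl4 replicate 3 was the lowest of its group by over 2 log2 units and 4T1 replicate 3 the highest of its own. Gzmd, Gzmc and Gzme showed the same order of arrays within 66cl4. The smaller differences, all from 4T1, were 4.72 ± 1.13 for Gzmg (adjusted p = 0.0137), 4.41 ± 0.83 for Gzmf (adjusted p = 0.00373) and 3.69 ± 0.83 for Gzmd (adjusted p = 0.00966). They were 2.73 ± 0.63 for Gzmc and 2.53 ± 0.71 for Gzme, whose 66cl4 and 4T1 values overlapped.

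Without 66cl4 replicate 1, or without 66cl4 replicate 2, the count of granzymes set apart fell to 3, and Gzmg and Gzme lost the call. Gzme lost it also without 4T1 replicate 1 or 2. The granzymes best known from T and NK cells, named here after their values were seen, did not follow. Gzma, of which T and NK cells make much, read 7.57, 6.42 and 8.37 in 66cl4, against 10.18, 9.71 and 10.17 in 67NR and 9.03, 7.63 and 8.58 in 4T1, so 66cl4 lay below 67NR. Gzmb averaged 9.57 ± 1.21 in 66cl4, against 8.75 ± 0.15 in 67NR and 9.73 ± 0.65 in 4T1 (SD, n = 3 each), and was not set apart. Perforin itself, Prf1, read 9.24, 8.90 and 6.98 in 66cl4, against 7.31, 7.25 and 7.36 in 67NR and 5.71, 6.56 and 7.03 in 4T1, and was higher than in 4T1 (adjusted p = 0.0231) but not than in 67NR (adjusted p = 0.211). The sum of T and NK cell markers given above was below that of 67NR in 66cl4 and overlapped with 4T1, and its part in the granzyme values was not tested. Gzmc to Gzmg are close relatives that lie together on chromosome 14, and their probe sets may bind each other's transcripts. Eomes, a transcription factor of NK cells and cytotoxic T cells, was the T and NK cell marker set apart higher, at 7.43, 7.48 and 7.26 in 66cl4, against 6.23, 6.23 and 6.15 in 67NR and 5.31, 5.20 and 5.50 in 4T1.

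**Figure D4:**
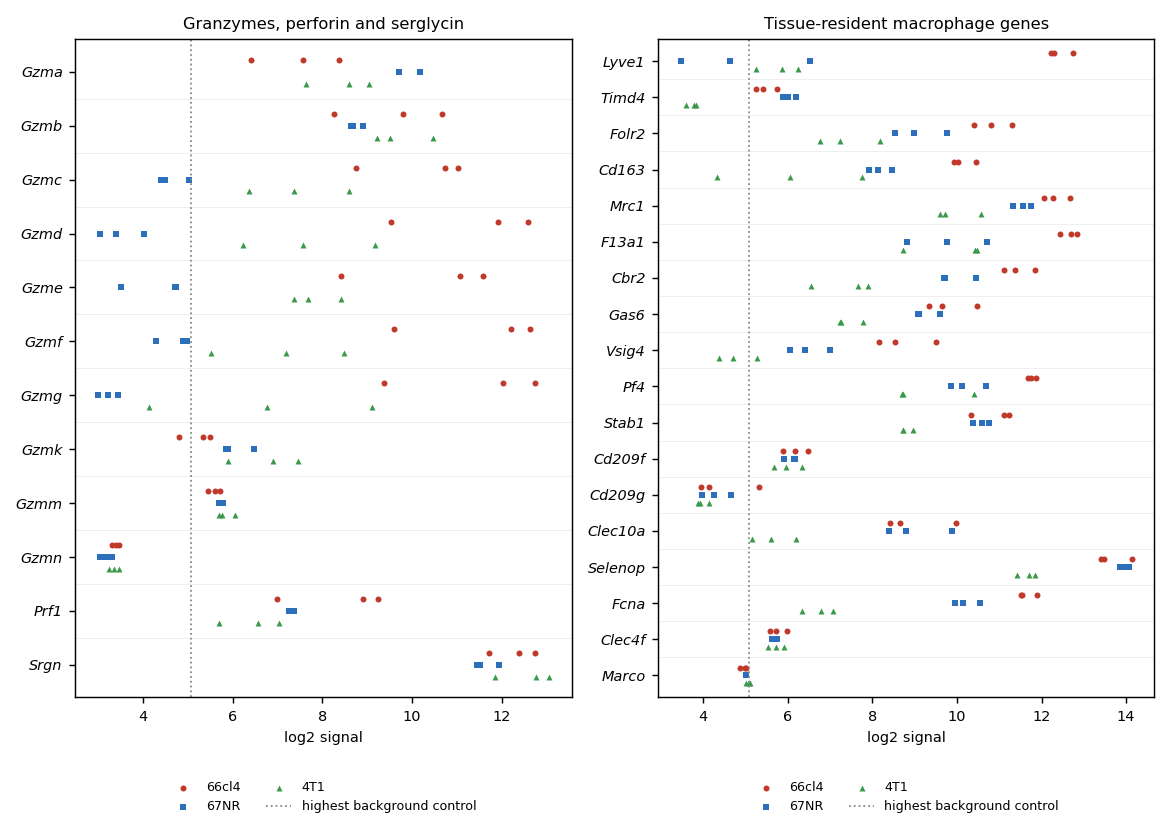
Log2 signal (x axis) of all measured granzymes with perforin and serglycin (left) and of all measured genes of tissue-resident macrophages (right), with 1 symbol per tumour, 66cl4 in red circles, 67NR in blue squares and 4T1 in green triangles. Gzmc to Gzmg reach 8.41 to 12.74 in 66cl4 while Gzma lies below 67NR, and Lyve1 separates 66cl4 from both lines by more than the other macrophage genes do.

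Genes of tissue-resident macrophages, long-lived cells that clear debris, were higher in 66cl4. Of 18 measured, 7 were set apart higher (38.9%, beside 6.88% of all genes) and none lower, with a median of 1.63. But for 14 of the 18 the level was above that of 4T1 at the threshold, and for 7 above that of 67NR. F13a1, a transglutaminase of such macrophages, read 12.43, 12.85 and 12.71 in 66cl4, against 8.82, 9.75 and 10.70 in 67NR and 10.47, 8.73 and 10.42 in 4T1, 6.89-fold higher. Vsig4, a complement receptor, read 8.53, 9.50 and 8.16 in 66cl4, against 6.06, 6.41 and 7.00 in 67NR and 4.37, 5.28 and 4.71 in 4T1. These genes formed levels in the order 66cl4, 67NR, 4T1 for Vsig4, whereas 67NR and 4T1 overlapped for F13a1. Folr2, a folate receptor, and Pf4, a CXC chemokine, had smaller differences of 1.74 and 1.55 from 67NR. Without 66cl4 replicate 3, or without 67NR replicate 1, 4 of the 18 were set apart. Folr2 and Pf4 lost the call in both cases, and Pf4 also without 66cl4 replicate 1, 66cl4 replicate 2 or 67NR replicate 2.

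The 18 genes summed to 40057 to 56133 in 66cl4, against 24914 to 31472 in 67NR and 5883 to 9799 in 4T1, whereas the 23 general macrophage and monocyte markers summed to 72629 to 89293 in 66cl4, against 71767 to 78461 in 67NR and 40265 to 44931 in 4T1. The sums of general macrophage markers therefore overlapped between 66cl4 and 67NR. Of the 23, 3 were higher and 4 lower than in 67NR, and 15 were higher and none lower than in 4T1. Set apart from both lines were 3 higher (6.88% of all genes were) and none lower. The 3 were Itgam, the CD11b chain, 3.39-fold, Cd14, the lipopolysaccharide co-receptor, 3.23-fold, and Cd68, a lysosomal glycoprotein, 1.52-fold. The count was 5 without 4T1 replicate 1 and 6 without 4T1 replicate 3. Lyve1 also marks lymphatic endothelium. The 7 measured markers of that tissue, Lyve1 included, summed to 6840 to 8788 in 66cl4, against 8643 to 9006 in 67NR and 496 to 1243 in 4T1. Most of the 66cl4 sum was Lyve1 itself, which was only a small part of the 67NR sum. Without Lyve1, the sum of every 66cl4 tumour would lie below those of 67NR and above those of 4T1. Lyve1 was the 1 set apart higher, and 1 was set apart lower. The lower marker was Flt4, the lymphatic growth factor receptor, at 5.74 ± 0.11 in 66cl4 against 7.33 ± 0.25 in 67NR and 6.81 ± 0.26 in 4T1. The part of lymphatic cells in the Lyve1 values was not tested. Prox1, the defining factor of lymphatic cells, named after its values were seen, was not above background in any line.

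Chemokines that attract myeloid cells differed in both directions. Of 23 CC chemokines and neutrophil-attracting ligands, 6 were set apart higher (26.1%, beside 6.88% of all genes) and 2 lower (8.7%, beside 4.49%). Ccl9 and Ccl6, related CC chemokines of myeloid cells, were 6.28-fold and 4.29-fold higher. Ccl6 read 12.93, 12.97 and 12.87 in 66cl4, against 10.54, 10.73 and 11.19 in 67NR and 9.79, 10.58 and 10.95 in 4T1. Cxcl12, which holds stem and immune cells in tissue, read 11.74, 11.54 and 12.16 in 66cl4, against 9.89, 10.01 and 10.11 in 67NR and 6.73, 8.19 and 7.15 in 4T1, 3.51-fold higher than in 67NR. Cx3cl1, a membrane-bound chemokine, was lower, at 7.28 ± 0.22 in 66cl4 against 9.06 ± 0.04 in 67NR and 9.90 ± 0.36 in 4T1. The level of Cxcl3, a neutrophil attractant, overlapped between 66cl4 and 4T1, and its call was lost without any of the 66cl4 or 67NR arrays or 4T1 replicate 1 or 2. No neutrophil marker of 16 was set apart.

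Endothelial markers were lower in 66cl4 than in both lines for 9 of 20 genes and higher for none (4.49% of all genes lower), with a median of -1.17. Emcn, a sialomucin of capillaries and veins, read 6.95, 6.99 and 7.33 in 66cl4, against 9.81, 9.30 and 9.42 in 67NR and 8.12, 8.29 and 8.20 in 4T1. Eng, a co-receptor of TGF-beta on vessels, was 2.13-fold lower, Tie1, an orphan receptor kinase, 2.02-fold and Nos3, which makes nitric oxide in vessels, 1.75-fold. Flt1, a receptor of vascular growth factors, had a smaller difference of -1.40, lost without 66cl4 replicate 2 or 3 or 67NR replicate 1 or 2. Pecam1 and Cdh5, junction proteins of endothelium named after their values were seen, were below 67NR (adjusted p = 0.000164 and 6.12e-06) and not called against 4T1 (adjusted p = 0.323 and 0.553). The 20 markers summed to 3177 to 4297 in 66cl4, against 12173 to 16068 in 67NR and 4538 to 5719 in 4T1. Of 25 genes of hypoxia and glycolysis, only Vegfa, the main growth factor of vessels, was set apart (4.0% lower, beside 4.49% of all genes). It read 6.66, 7.95 and 6.70 in 66cl4, against 9.02, 9.52 and 8.79 in 67NR and 8.50, 9.74 and 10.00 in 4T1, 4.02-fold lower.

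Basement membrane and matrix genes were lower in part. Of 14 laminins and basement membrane genes, 4 were set apart lower (28.6%, beside 4.49% of all genes) and none higher. Nid1, which links laminin to collagen, read 7.63, 8.0 and 7.82 in 66cl4, against 10.15, 9.95 and 9.93 in 67NR and 9.09, 9.89 and 9.59 in 4T1, 3.26-fold lower. Lama4, a laminin chain of vessels, was 2.18-fold lower and Lamc1 1.58-fold. The endothelial sums above were also lowest in 66cl4, and their part in these genes was not tested. Of 23 collagen chains, 3 were set apart lower, led by Col6a3, a microfibril collagen, at 8.78 ± 0.26 in 66cl4 against 11.30 ± 0.37 in 67NR and 11.29 ± 0.74 in 4T1. Col16a1 was 2.50-fold lower, and Col15a1 lost its call without 66cl4 replicate 1 or 67NR replicate 3.

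Matrix proteases and inhibitors were set apart lower in 6 of 25 cases and higher in 1 (Adamts5, named after its values were seen). These shares were 24.0% and 4.0%, beside 4.49% and 6.88% of all genes. Without 66cl4 replicate 1 or 66cl4 replicate 3, 3 were lower. Mmp3, stromelysin, read 6.67, 7.22 and 6.72 in 66cl4, against 9.16, 9.46 and 10.00 in 67NR and 10.68, 12.23 and 10.46 in 4T1, 6.37-fold lower. Adamts12 was 2.41-fold lower. Markers of fibroblasts, cells that make such proteases, summed to 10600 to 17234 in 66cl4, against 8560 to 11278 in 67NR and 22602 to 52362 in 4T1, and 1 of 16 was set apart. Beside Ogn, the matrix proteins higher in 66cl4 included Thbs1, thrombospondin, which activates TGF-beta and restrains vessel growth. It read 11.13, 10.45 and 11.04 in 66cl4, against 8.51, 7.98 and 7.77 in 67NR and 9.05, 9.43 and 9.89 in 4T1. Eln and Prelp made up the 4 of 24 proteoglycans and matricellular genes set apart higher (16.7%, beside 6.88% of all genes). The count was 2 of 24 without 66cl4 replicate 1, 66cl4 replicate 3, 4T1 replicate 2 or 4T1 replicate 3.

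The factors of the epithelial-mesenchymal transition did not move as a block. Of 21 measured, 3 were set apart higher (14.3%, beside 6.88% of all genes) and 2 lower (9.5%, beside 4.49%), with a median of -0.12. Snai1, a repressor of E-cadherin, was lower, reading 5.10, 5.31 and 4.67 in 66cl4, against 8.42, 8.18 and 8.0 in 67NR and 7.97, 8.14 and 7.39 in 4T1, 7.01-fold (-2.81 ± 0.22 from 4T1, adjusted p = 1.33e-05). Its 66cl4 readings lay at or near background. Foxc1, a forkhead factor of mesenchyme, was 2.72-fold higher, Prrx2 is described above, Id2 was 1.77-fold higher and Id3 2.89-fold lower, both of which hold back other factors by binding them. Twist1, Zeb1, Zeb2 and Snai2 were not set apart. Zeb1 read 9.87, 9.47 and 9.92 in 66cl4, against 9.92, 9.83 and 9.66 in 67NR and 7.85, 7.94 and 7.90 in 4T1, so 66cl4 overlapped with 67NR and stood above 4T1.

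Several well-known epithelial and mesenchymal genes were at levels near those of 67NR or of 4T1 in 66cl4. E-cadherin, Cdh1, was not above background in 66cl4 (4.45, 4.38 and 4.00) or 67NR (3.99, 4.37 and 3.92), against 10.91, 10.76 and 11.11 in 4T1. Krt18 followed the same pattern, at 5.47 ± 0.46 in 66cl4, against 4.77 ± 0.54 in 67NR and 13.39 ± 0.10 in 4T1. Krt8, its partner keratin, did not, with 13.01 ± 0.20 in 66cl4, against 6.74 ± 0.18 in 67NR and 13.48 ± 0.20 in 4T1, so 66cl4 lay 6.27 above 67NR and 0.47 below 4T1. N-cadherin, Cdh2, was high in 66cl4 (9.59 ± 0.31) and 67NR (10.59 ± 0.15) and low in 4T1 (4.25 ± 0.91). Vim and Fn1, mesenchymal filament and matrix proteins, were near 14 in all 3 lines, and the 66cl4 mean of Vim was 13.93, against 14.13 in 67NR and 13.92 in 4T1. Of 12 keratins none was set apart, and of 26 junction genes 1 was higher and 1 lower (3.8% each). Of 22 epithelial regulators 2 were lower (9.1%, beside 4.49% of all genes). Of 25 mesenchymal genes 4 were lower (16%, beside 4.49% of all genes), with a median of -0.65. That count was 1 or 2 without 66cl4 replicate 1 or 3, 67NR replicate 1 or 2, or 4T1 replicate 3. Mcam, an adhesion molecule also of pericytes, was the member of that list lowest against both lines (1.97-fold).

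Developmental factors and guidance cues differed in both directions. Of 57 homeobox and patterning factors, 7 were set apart higher (12.3%, beside 6.88% of all genes) and 3 lower (5.3%, beside 4.49%), with a median of -0.11, and the lower count was 1 without 66cl4 replicate 2 or 67NR replicate 3. Shox2, a factor of limb and heart, was 3.46-fold higher, Hoxb6 3.44-fold, Pax3, a factor of neural crest and muscle, 3.30-fold and Irx5 2.74-fold. Hoxb6 read 6.95, 6.96 and 6.97 in 66cl4, against 5.26, 5.26 and 5.01 in 67NR and 3.76, 4.38 and 4.64 in 4T1. Of 27 semaphorins and guidance genes, 4 were set apart higher (6.88% of all genes were) and 1 lower, with a median of 0.0017. Sema3a, a repellent of axons and vessels, read 9.14, 9.13 and 9.87 in 66cl4, against 6.32, 6.61 and 6.88 in 67NR and 5.55, 5.77 and 6.13 in 4T1, 6.86-fold higher. Ntn1, netrin, was 4.80-fold higher. Sema3e, which acts through Plxnd1, read 9.57, 9.51 and 9.63 in 66cl4, against 3.96, 3.97 and 3.70 in 67NR, where it was not above background, and 7.87, 7.80 and 7.10 in 4T1, 3.95-fold higher than in 4T1. Efnb2, an ephrin of arteries, was 2.37-fold higher.

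In the TGF-beta and BMP pathway, 5 of 33 genes were set apart higher and 2 lower. These shares were 15.2% and 6.1%, beside 6.88% and 4.49% of all genes. Beside Bmp4, the genes set apart included Smad3, a transducer of TGF-beta (1.79-fold higher, with 1 of its 3 probe sets called). Another was the TGF-beta co-receptor Tgfbr3, at 11.30 ± 0.29 in 66cl4 against 10.41 ± 0.11 in 67NR and 7.21 ± 0.12 in 4T1. Inhbb, an activin subunit, was 3.87-fold lower, and Id3, a known target of BMP signals, read 8.38, 7.50 and 8.97 in 66cl4, against 10.39, 10.54 and 10.00 in 67NR and 9.76, 9.70 and 9.97 in 4T1. The ligand Bmp4 was thus higher and Id3 lower in the same tumours, whereas Id2 was 1.77-fold higher. Id2 averaged 10.72 in 66cl4, against 9.82 in 67NR and 9.90 in 4T1. Whether BMP signals differed between the lines was not tested. Of 33 Wnt pathway genes, 1 was set apart higher and 1 lower. At 3.0% each, these shares were below the 6.88% and 4.49% of all genes. The higher was Axin2, a target and brake of the pathway (2.44-fold, with 1 of its 2 probe sets called). Notum, a secreted inhibitor, was the lower (2.48-fold). Among EGF family genes, Hbegf lost its call without 66cl4 replicate 1 or 3, 67NR replicate 2 or 3, or 4T1 replicate 3, and Egf, though called, was not above background in any line.

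Metabolic genes differed in a few members. Of 21 genes of cholesterol and fatty acid synthesis, 3 were set apart higher (14.3%, beside 6.88% of all genes) and none lower. Scd1, which desaturates fatty acids, led them and was 6.47-fold higher. It read 11.46, 10.81 and 11.02 in 66cl4, against 8.04, 8.33 and 8.14 in 67NR and 8.17, 8.17 and 8.86 in 4T1. Dhcr7, the last enzyme of cholesterol synthesis, was 1.96-fold higher. The list median of 0.49 came with 18 of 21 genes above 67NR but 3 above and 7 below 4T1, so the list as a whole set 66cl4 apart from 67NR rather than from both. Of 24 genes of oxidative phosphorylation, 4 were set apart higher (16.7%, beside 6.88% of all genes) and none lower. Each of the 4 had a smaller difference under 2-fold, with Ndufb8, a complex I subunit, highest at 1.81-fold. Aldh3a1, an aldehyde dehydrogenase of the Nrf2 antioxidant list, read 10.80, 10.82 and 11.09 in 66cl4, against 8.38, 7.97 and 8.40 in 67NR and 3.91, 3.71 and 4.34 in 4T1, 6.29-fold above 67NR. Me1, malic enzyme of the same list, was 2.74-fold lower. In that list 3 of 19 were higher (15.8%, beside 6.88% of all genes). The count was 1 without 66cl4 replicate 2, 67NR replicate 1 or 67NR replicate 2. Proliferation genes showed no common direction, with 1 of 31 higher (3.2%) and 2 lower (6.5%) and a median of -0.057.

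**Figure D5:**
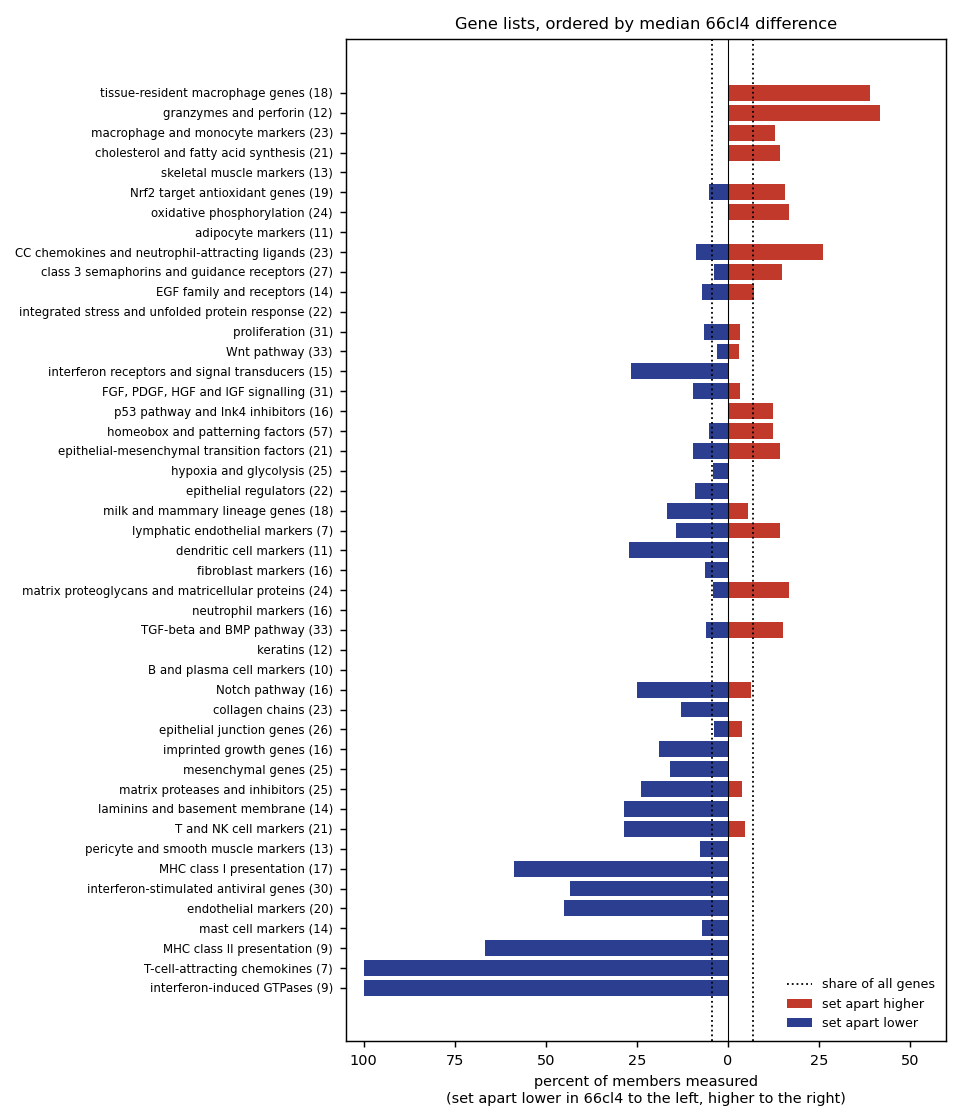
Percent of the measured members of each gene list that were set apart lower (blue, to the left) or higher (red, to the right) in 66cl4, with the number measured in brackets and lists ordered by median difference. The dotted lines mark the shares over all genes, 4.49% lower and 6.88% higher. In the lists of interferon-induced GTPases and T-cell-attracting chemokines, at the foot, every measured member was set apart lower, and granzymes (41.7%) and tissue-resident macrophage genes (38.9%) reach the highest shares on the other side.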

How the data were processed

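The deposited values are the authors' log2 signals of 45101 probe sets on 9 arrays. The log2 scale was read from the values (2.42 to 14.80). The summary of probes into probe sets and the normalization are steps not given in the sources used here. Array 75th percentiles were 7.58 to 7.74, so no further scaling was done. The 64 array controls were left out, and the other 45037 probe sets were all tested, with no filter on low values. Of these, 34945 had 1 gene symbol, 932 several and 9160 none. Symbols from the platform annotation were updated through RefSeq on GRCm38.p6, which 34741 matched. A gene was read through its brightest probe set annotated to it alone (18193 genes).

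The 3 line means were fitted to all 9 arrays by limma (version 3.58.1, R 4.3.3) with lmFit and eBayes and without covariates. There were 6 residual degrees of freedom and 3.87 from the prior. Tests were two-sided, with Benjamini-Hochberg adjustment over all probe sets within each comparison. Arrays have no read depth, and 3 arrays per line limit the precision. An exact permutation test of 3 against 3 cannot go below 0.1, which is why limma's moderated model was used. Background was taken from 27 bacterial control probe sets, and bounds were computed against their highest value per array. The fit was tested on simulated data.

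Named genes were, per direction, the 16 with the largest smaller difference among genes set apart without overlap, up to 5 set-apart members of each of 46 gene lists (868 of 933 genes measured), and 12 genes of the epithelial-mesenchymal transition. The members and lists were chosen with earlier results of these data known. Lists are described by counts and medians, with no test of a list. Alternatives covered a filter, quantile normalization, variance moderation, pairwise fits, a replicate block, the number in the array file name, hybridization controls, mean probe sets, a floor at background, 1 adjustment over both comparisons, a 2-fold minimum and leaving out each array.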

Additional observations from a re-analysis of the deposited data

How the results depend on the processing

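The counts of 1251 genes set apart higher and 816 lower moved by over 1.5 times in 3 settings. With the hybridization controls as a covariate they were 782 (760 shared with the counts above) and 515 (499 shared), and the genes differing from 4T1 were 3399, against 5140. With the number in the array file name as a covariate, 523 were lower (494 shared). A 2-fold minimum in both comparisons left 292 higher and 295 lower. Leaving out each array in turn gave 913 to 1239 higher, 620 to 814 lower, 3357 to 4723 genes against 67NR, 4115 to 4928 against 4T1 and 3680 to 5050 against the mean of both. The cause was not tested. Deviations of arrays with the same replicate number correlated at -0.12 to 0.15, and those with different numbers at -0.20 to 0.19. With 3 arrays per line this cannot show whether tumours were paired, and the numbers were not used as pairs. A replicate block gave 1115 higher (1065 shared), 757 lower (718 shared), 4640 genes against the mean of both, 4075 against 67NR and 4797 against 4T1. Some small differences that were not called changed sign. From 67NR, Cdh1 was -0.0886 with the file number and -0.0332 with the floor, and Fn1 was -0.0469 with the file number and -0.0925 with the hybridization controls. Leaving out each array gave -0.0151 to 0.1911 for Fn1, -0.2681 to 0.014 for Epcam, -0.1349 to 0.0906 for Zeb1 and -0.0543 to 0.4789 for Zeb2, with signs turned without 67NR replicate 3 (Fn1), 67NR replicate 1 (Epcam), 66cl4 replicate 2 or 67NR replicate 1 (Zeb1, 0.0066 in the second case) and 66cl4 replicate 2, 67NR replicate 1 or 67NR replicate 3 (Zeb2). From 4T1, Vim was -0.0726 after quantile normalization and -0.0217 with the hybridization controls, and -0.018 to 0.0371 when each array was left out, below 0 without 66cl4 replicate 3 or 4T1 replicate 1. The smaller difference of Egf, which was called but not above background, was -0.0637 with the floor. Of 160 named genes set apart, 38 lost the call with the file number, 35 with the hybridization controls, and 6 with the replicate block. With these 2 covariates T and NK cell markers set apart lower were 2 and 3, and with the file number dendritic cell markers and interferon transducers were 1 each. The lists of MHC class I and II, antiviral genes, GTPases, T-cell chemokines and endothelial markers stayed within 1.5 times of their counts in the settings run for lists, which did not include the 2-fold minimum or the single adjustment.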

Other observations

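Notch pathway genes pass signals between touching cells and shape vessels. Of 16 measured, 4 were set apart lower (4.49% of all genes were) and 1 higher (6.88% of all genes were). Jag1, a ligand, read 7.13, 7.09 and 6.97 in 66cl4 tumours, against 8.29, 8.33 and 7.98 in 67NR and 9.05, 9.27 and 9.31 in 4T1, and was 2.19-fold lower (adjusted p = 0.000172 from 67NR). Dll4, the ligand of sprouting endothelium, was 1.91-fold lower, and Notch1 1.85-fold. Of 16 imprinted growth genes, 3 were set apart lower (18.8%, beside 4.49% of all genes) and none higher. Igf2r, which clears IGF2, was 3.18-fold lower, Mest 2.73-fold and Grb10, an adaptor that restrains growth signals, 1.82-fold. Among FGF, PDGF, HGF and IGF signalling, 3 of 31 were lower (9.7%, beside 4.49% of all genes) and 1 higher (3.2%, beside 6.88%). Igfbp3, an IGF carrier, read 9.02, 9.04 and 8.11 in 66cl4, against 12.45, 12.32 and 12.34 in 67NR and 10.47, 10.99 and 11.21 in 4T1, so all 3 lines stood apart. Pdgfb, which recruits pericytes, was 2.96-fold lower. The oestrogen receptor Esr1 was 1.65-fold higher in 66cl4 than in 4T1 and further above 67NR.

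Genes set apart were not spread evenly over the chromosomes, which was looked at after the values were seen and not tested. Over all genes the shares were 6.88% higher and 4.49% lower. On chromosome 14, where the granzymes Gzmc to Gzmg lie, 93 of 641 genes were set apart higher (14.5%), on chromosome 3 111 of 913 (12.2%), on chromosome 13 83 of 702 (11.8%) and on the X chromosome 62 of 617 (10.0%), whereas on chromosome 15 it was 19 of 724 (2.6%). Genes set apart lower were most frequent on chromosome 19, with 53 of 609 (8.7%), and least frequent on the X chromosome, with 11 of 617 (1.8%). A run of neighbouring genes on chromosome 17, from Zfp160 to Zfp758, was picked and its ends set after the values were seen. Its counts follow in part from that choice and were not tested. Of its 17 measured genes, 8 were set apart higher, beside 6.88% of all genes, and none lower. In that run 16 had a 66cl4 mean above the mean of both other lines, and 14 lay above each line, with a median difference of 0.53.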
